A study of Mus musculus with 4 samples.

Results

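The loci described here are stretches of the mouse genome that produced RNA in the mammary gland, carried no gene name in the deposited expression table, were longer than 150 bp, had an FPKM above 0 in miR-21+/+ or miR-21-/- tissue and lay more than 10 kb from every row with a gene name. Of 30506 rows in the table, 8023 had no name and 2828 met this rule. The 2828 rows fell on 2585 distinct intervals of 21 chromosomes, because 335 rows shared their interval with another of these rows and were overlapping transcript models of 1 place. The rule used the larger of the FPKM values against 0 and no difference between the genotypes. FPKM is the number of sequenced fragments per kilobase of transcript, scaled to the mapped total, so it is a level per length. The study asked which transcripts of the mammary gland differ when the microRNA miR-21 is missing. Its RNA came from mammary glands of 4 virgin mice, 2 of each genotype, labelled as 2 months old and of the mixed strain 129SV::FVB/N::C57BL/6, with no treatment. The knockout was constitutive, so all cells of the animal lacked miR-21. The table gives a single FPKM per genotype for both of its mice together. There is therefore no value per mouse and no replicate error. The authors' own test columns were not used, so no test is given, and a difference given here is a difference between those pooled values.

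Transcription is not limited to annotated genes. RNA that maps between genes can come from long non-coding transcripts, from extended ends of genes, from inserted copies of mRNAs (processed pseudogenes), from repeated elements, or from gene segments that an annotation leaves out. The antigen receptor genes of B and T cells are of the last kind. Their variable (V) segments lie in arrays over large stretches of a chromosome, are joined to D and J segments by recombination in each lymphocyte, and carry a recombination signal made of a heptamer, a spacer and a nonamer directly after the V segment.

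These 6 stretches are shown as examples of the antigen receptor segments and of the unannotated loci in runs of differing loci. The first 3 hold the last 100 bases of annotated V segments with the bases that follow, on the strand of the segment, and capitals mark an exact heptamer CACAGTG and, where present, an exact nonamer ACAAAAACC. They are Igkv4-68 (chr6:69254800-69254927, minus strand), Gm16860 of the heavy chain array (chr12:115984477-115984583, minus strand) and Trbv13-3 (chr6:41080485-41080591, plus strand). The other 3 are whole loci with no annotated gene, given on the plus strand, of which the first was listed at 0 in miR-21+/+, the second was higher in miR-21-/- and the third was listed at 0 in miR-21-/-. In these, capitals mark AATAAA or its complement TTTATT, the hexamer of the polyadenylation signal. All positions are in mm9.
Igkv4-68: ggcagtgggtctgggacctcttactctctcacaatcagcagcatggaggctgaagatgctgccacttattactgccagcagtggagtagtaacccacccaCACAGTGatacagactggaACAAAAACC
Gm16860: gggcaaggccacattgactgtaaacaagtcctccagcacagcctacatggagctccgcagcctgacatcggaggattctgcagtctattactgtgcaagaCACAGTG
Trbv13-3: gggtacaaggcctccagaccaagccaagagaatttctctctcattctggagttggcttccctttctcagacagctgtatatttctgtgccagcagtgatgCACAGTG
chr13:53799852-53800044: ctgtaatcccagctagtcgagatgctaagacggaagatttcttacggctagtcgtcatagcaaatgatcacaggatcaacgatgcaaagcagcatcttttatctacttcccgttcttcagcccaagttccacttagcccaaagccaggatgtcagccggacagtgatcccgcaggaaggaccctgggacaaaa
chr17:94550745-94550948: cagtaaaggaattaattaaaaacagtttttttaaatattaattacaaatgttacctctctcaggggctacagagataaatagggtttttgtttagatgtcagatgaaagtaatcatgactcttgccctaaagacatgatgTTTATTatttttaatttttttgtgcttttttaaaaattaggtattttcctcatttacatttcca
chr6:72947540-72947809: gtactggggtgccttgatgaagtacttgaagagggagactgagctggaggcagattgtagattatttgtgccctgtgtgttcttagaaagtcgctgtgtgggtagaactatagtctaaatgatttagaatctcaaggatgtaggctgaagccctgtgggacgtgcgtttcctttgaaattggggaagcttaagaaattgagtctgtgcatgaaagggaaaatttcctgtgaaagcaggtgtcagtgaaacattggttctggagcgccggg

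The hexamer or its complement occurred in the central 150 bases of 14.3% of the 2375 intervals of at most 5 kb. It occurred in 27 of 143 intervals at least 4-fold higher in miR-21-/- and in 12 of 123 at least 4-fold lower. Here an interval with several rows was judged by the first of them. Counted by any row, 127 such intervals were at least 4-fold lower. The heptamer is described with the antigen receptor regions.

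The deposited FPKM summed to 380567 in miR-21+/+ tissue and 355385 in miR-21-/- over rows with a gene name. The luminal keratins Krt8, Krt18 and Krt19, the adipocyte gene Adipoq and the myoepithelial gene Acta2 were all above 100 FPKM in both genotypes, so the defining genes of the labelled tissue were present. The gene of miR-21 shares a row with Vmp1, whose FPKM was 42.5 in miR-21+/+ tissue and 68.2 in miR-21-/-, so the row does not show the deletion. The depth of the libraries is unknown.

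The far unannotated loci were short and weakly expressed. Their median length was 628.5 bp, and 1841 of the rows were shorter than 1 kb while 435 were longer than 5 kb. The median FPKM was 0.799 in miR-21+/+ tissue and 0.764 in miR-21-/-, and 1395 rows were at or below 1 FPKM in both genotypes. Only 249 rows exceeded 5 FPKM in a genotype, and 11 exceeded 100. The median gap to the nearest row with a gene name was 32333 bp. It exceeded 100 kb for 592 rows and 1 Mb for 30, of which the farthest was chr4:78419785-78420013, with 0.928 FPKM in miR-21+/+ tissue and 9.13 in miR-21-/-. At the edges of the rule, the nearest locus included lay 10003 bp from a named row (chr11:57906132-57906629, 0.281 and 0.633 FPKM) and the nearest left out lay at 9994 bp (chr10:81627046-81627544, 0.794 and 0.414 FPKM). The shortest locus included had 151 bp (chrX:30547396-30547546, 49.4 and 38.8 FPKM), and a far row of 150 bp with 205 and 122 FPKM was left out.

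Most of these loci had similar FPKM in both genotypes, but a large minority did not. The log2 ratio of miR-21-/- to miR-21+/+, computed after adding 0.1 FPKM to each value, lay within 2-fold for 61.7% of the 2828 rows, with a median of -0.13. The 5th and 95th percentiles were -2.20 and 2.29. For the 19169 rows with a gene name above 0 they were -0.72 and 0.66. At least 4-fold higher in miR-21-/- were 189 far loci (6.68%), and at least 4-fold lower were 171 (6.05%). Over all 27192 rows above 0 the shares were 1.57% higher and 1.49% lower, and over rows with a gene name 0.47% and 0.73%.

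Low level was one way in which the far loci differed from named rows, and the comparison was therefore repeated at matched level. The quartiles of the mean FPKM of the far loci were 0.551 and 1.37 FPKM. Between them 5.02% of 1414 far loci were higher and 5.66% lower, against 1.69% and 2.39% of 1422 rows with a gene name. Unannotated loci of the same minimum length that lay within 10 kb of a named row, 5011 in all, had a median FPKM of 0.786 in miR-21+/+, near that of the far loci, and 2.51% of them were higher and 1.84% lower. The far loci thus held a larger share past 4-fold than both of these sets. The level-matched named rows were longer, with a median of 24631 bp against 585.5 bp for the far loci of that range. Both lengths are spans on the genome, not the transcript length that FPKM uses. Among all far loci the shares varied with span. From 150 to 300 bp, 6.88% of 276 rows were higher and 10.9% lower. From 1 to 5 kb the shares were 4.89% and 2.36% of 552 rows, and above 5 kb 10.6% and 9.89% of 435. The levels of these classes differed too, with medians of 3.56, 0.668 and 0.858 FPKM in miR-21+/+. The part of length in the difference was not tested. These shares are descriptions, since rows are not replicates. They also depended on the pseudocount and on the scale of the columns. With 1 FPKM added in place of 0.1, 23 far loci were 4-fold higher and 17 lower. When the miR-21-/- column was scaled to the miR-21+/+ sum over all rows, which shifts every log2 ratio by -0.63, 100 far loci were 4-fold higher and 295 lower. Scaling to the sum over named rows gave 201 higher and 161 lower.

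**Figure D1:**
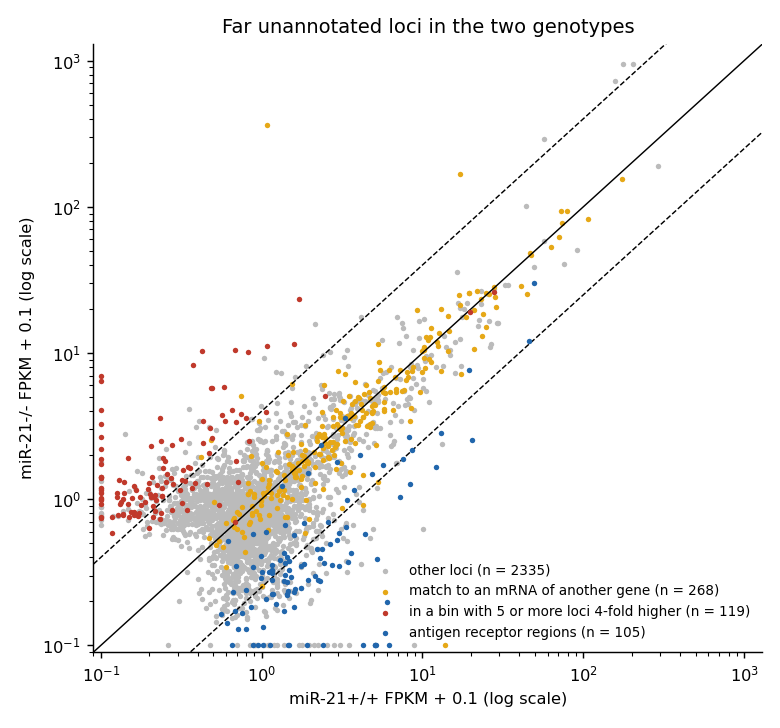
Deposited FPKM of 2827 far loci in miR-21+/+ (x axis) and miR-21-/- tissue (y axis), each plus 0.1 FPKM on a log scale, with the mitochondrial row left out. The solid line marks equal values and the dashed lines a 4-fold difference; loci of the bins with 5 or more higher loci lie above the solid line except for 2, and antigen receptor loci lie below the solid line except for 1.

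Rows in the antigen receptor regions (105) and other rows that matched an mRNA of another gene (270) were classed first, whether or not they overlapped a gene. The mitochondrial row was also set apart. By the GENCODE annotation of mm9, 1866 of the rows left overlapped no annotated gene. Of these, 174 (9.32%) were at least 4-fold higher in miR-21-/- and 84 (4.50%) lower, so most of the higher loci were in this class. The antigen receptor class held 0 higher and 65 lower loci, and the mRNA class 6 and 3. The counts that follow are also of the rows left. Introns of annotated genes held 206 rows with 2 higher and 9 lower. Exons of protein-coding genes held 175 rows with 1 higher and 3 lower, and exons of long non-coding transcripts 136 rows with 3 higher and 7 lower. The 3 higher long non-coding transcripts were Gm11963, Gm13219 and Gm15230, with 0.0921, 0.277 and 0.416 FPKM in miR-21+/+ and 0.772, 8.18 and 2.17 in miR-21-/-. Among the lower ones, Has2as, transcribed next to the hyaluronan synthase gene Has2, had 3.18 and 0.556 FPKM. Has2 itself had 2.30 and 1.67 FPKM. A630023P12Rik was lower at both of its loci, from 1.15 to 0.159 FPKM at one and from 1.15 to 0.170 at the other.

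The 4-fold differences were clustered along the chromosomes. When the genome was divided into 500 kb bins, 989 bins held a far locus. Loci 4-fold higher in miR-21-/- occurred in 73 bins, loci 4-fold lower in 79, and both occurred together in 1 bin. In all, 10 bins held 5 or more higher loci, together 97 of the 189 (51.3%), and no lower locus. Another 10 bins held 5 or more lower loci, together 68 of the 171 (39.8%), and no higher locus. Outside these bins 92 of 2599 rows were higher (3.54%) and 103 lower (3.96%). Bins were chosen by these counts, so their values are given as a description. Neighbouring rows can be pieces of 1 transcript, and rows on 1 interval are models of the same place. With far loci less than 5 kb apart merged, 1376 loci remained, of which 62 were higher (4.51%) and 74 lower (5.38%). No bin then held 5 or more higher loci, and 1 held 5 or more lower loci. With a pseudocount of 1 FPKM the numbers of such bins were 1 and 0.

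**Figure D2:**
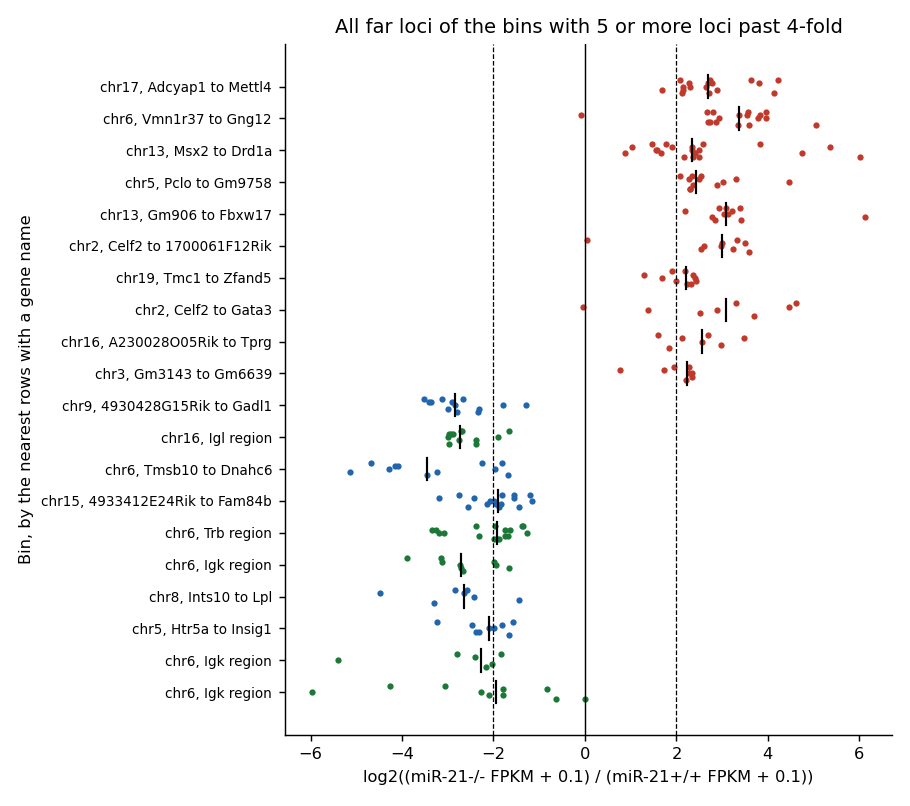
Log2 ratio of each far locus in the 20 bins of 500 kb with 5 or more loci past 4-fold, 1 point per row, with the median as a black bar and dashed lines at -2 and 2. Red and blue bins held 5 or more higher or lower loci, green bins lie in an antigen receptor region, and 117 of 119 rows of the higher bins and all 110 rows of the lower bins lie on 1 side of 0.

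One of the 2 bins with most 4-fold higher loci, 16 each, lay on chromosome 17 between Adcyap1 and Mettl4, with no annotated gene in it. Its 17 rows lay on 8 intervals within 32395 bp (chr17:94543811-94576205), 938981 bp from Adcyap1 and 545734 bp from Mettl4. FPKM in miR-21+/+ ranged from 0 to 0.721 with a median of 0.112, and in miR-21-/- from 0.535 to 10.01 with a median of 1.05. All 17 rows were higher in miR-21-/-, 16 of them at least 4-fold. The highest, chr17:94550745-94550948, whose sequence is printed above, had 0.721 and 10.01 FPKM. It was rich in A and T, with a GC content of 26.5%. The next interval, chr17:94551050-94551507, matched an mRNA of Cyp4x1 at 92.7% identity, was mostly repeated (19.6% of its 31-base words occurred once in mm9) and had 0.597 and 3.28 FPKM, while the row of Cyp4x1 itself had 0.0200 and 0.0163 FPKM. Mettl4, a putative methyltransferase gene, had 5.22 and 4.97 FPKM (status FAIL), and Adcyap1, which encodes a neuropeptide, had 0 and 0.0122.

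The other bin with 16 higher loci lay on chromosome 6 among vomeronasal receptor genes (chr6:66702958-66825754). It held 17 rows on 13 intervals, at a median level of 0.132 FPKM in miR-21+/+ tissue and 3.51 in miR-21-/-. The rows formed a group near Vmn1r38 with 0.655 to 1.32 FPKM in miR-21-/- and a more highly expressed group toward Gng12, in which chr6:66779087-66779246 had 1.60 and 23.4 FPKM, with 44.6% of its 31-base words occurring once. The one row without a difference, chr6:66825254-66825754 with 27.6 and 26 FPKM, matched the mRNA of the ribosomal protein gene Rpl23. Of its 31-base words 29.5% occurred once in the genome. The named rows among and beside the loci were also higher in miR-21-/-. Vmn1r38, a pheromone receptor gene, had 0.0486 and 1.05 FPKM, Vmn1r39 had 0.0228 and 0.592, and Gng12, a G protein gamma subunit, had 39.5 and 66.0 in a row with the status FAIL.

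Both higher bins of chromosome 13 held loci that were listed at 0 in miR-21+/+. In the first, chr13:53729872-53800044 between Msx2 and Drd1a, all 20 rows on 8 intervals were higher in miR-21-/- and 12 were at least 4-fold higher. Of these, 4 were listed at 0 in miR-21+/+, with 6.35 FPKM in miR-21-/- at chr13:53799852-53800044 (printed above), 3.97 at chr13:53795430-53795690, 2.58 at chr13:53798296-53798572 and 1.33 at chr13:53794628-53794986. Every 31-base word of these 4 loci occurred once in mm9. Msx2, a homeobox gene active in mammary development, lay 161722 bp away and had 5.43 and 5.99 FPKM. In the second, chr13:50432043-50453527 between Gm906 and Fbxw17, all 11 rows were at least 4-fold higher. They had at most 0.175 FPKM in miR-21+/+ and between 0.668 and 6.85 in miR-21-/-, the highest being chr13:50448123-50448319, which was listed at 0 in miR-21+/+. Fbxw17, an F-box gene, had 6.52 and 10.6 FPKM.

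On chromosome 5, all 12 rows from 14874099 to 14886374 were at least 4-fold higher, with 0 to 0.496 FPKM in miR-21+/+ and 0.931 to 5.73 in miR-21-/-. The run lay between Pclo, a gene of the presynaptic active zone, and members of the Speer family. Pclo had 0.0924 and 0.186 FPKM. Gm9758 had 0.124 and 0.836, Speer4e 0.209 and 1.12, and Speer8-ps1 0.229 and 3.02.

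On chromosome 2 a pair of neighbouring bins before Gata3 held 14 higher loci. From 8962278 to 9000571, 8 of 9 rows were higher, and the median level of the 9 was 0.0390 FPKM in miR-21+/+ tissue and 1.00 in miR-21-/-. The ninth, in the pseudogene Gm13217, had 0.581 and 0.600 FPKM. From 9000650 to 9333329, 6 of 8 rows were higher. The most highly expressed of these were chr2:9240211-9241984, with 0.323 and 10.3 FPKM, and the adjoining chr2:9242144-9301943 on the long non-coding gene Gm13219, with 0.277 and 8.18. A locus between them and the first bin, chr2:9002454-9002624, had 19.7 and 19.1 FPKM, and 31.2% of its 31-base words occurred once. Gata3, the transcription factor of the luminal lineage, shared a row with 9230102O04Rik that had 19.6 and 38.8 FPKM, 445370 bp from the nearest of these loci.

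The other 3 higher bins had lower levels. They lay on chromosome 19 between Tmc1 and Zfand5 (6 of 10 rows at least 4-fold higher), on chromosome 16 before Tprg (5 of 7) and on chromosome 3 between Gm3143 and Gm6639 (5 of 8). In all 3 bins every row was above its miR-21+/+ value. The highest value in each bin in miR-21-/- was 3.51, 3.30 and 1.57 FPKM. Apart from these bins, chr4:129080681-129087902 had one of the 10 largest ratios, with 0.0417 and 2.69 FPKM. It lay between the zinc finger genes Zbtb8a (5.06 and 19.9 FPKM) and Zbtb8b (0.390 and 1.90).

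Of the 10 bins with 5 or more lower loci, 5 lay in antigen receptor regions and 5 did not. Over all 10 bins, 57 rows lay outside the antigen receptor regions, and 36 of them were at least 4-fold lower. Their median level was 1.60 FPKM in miR-21+/+ tissue and 0.161 in miR-21-/-. They include a row beside the antigen receptor region of chromosome 16. On chromosome 9 between 4930428G15Rik and Gadl1, 12 rows on the single interval chr9:115361343-115448902 had 1.37 to 4.84 FPKM in miR-21+/+ and 0.0951 to 0.747 in miR-21-/-. Of these, 11 were at least 4-fold lower. A further locus nearby, chr9:115451009-115451510, had 0.541 and 0.164 FPKM.

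On chromosome 6 between Tmsb10 and Dnahc6, 11 loci within 9922 bp (chr6:72944320-72954241) were all lower in miR-21-/-, and 8 of them at least 4-fold. Of these, 6 were listed at 0 in miR-21-/-, the highest being chr6:72947540-72947809 with 3.41 FPKM in miR-21+/+, whose sequence is printed above and held no polyadenylation hexamer. The named neighbours did not show this pattern. Tmsb10, an actin-binding thymosin gene, had 220 and 199 FPKM, and Dnahc6, a dynein heavy chain gene, had 0.144 and 0.146.

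Lower bins also lay next to a pair of genes of lipid metabolism. On chromosome 8 between Ints10 and Lpl, 6 of 7 rows were at least 4-fold lower (chr8:71364848-71385250), with 0.932 to 2.14 FPKM in miR-21+/+ and 0 to 0.453 in miR-21-/-. Lpl, which encodes lipoprotein lipase, began 18972 bp away and had 1319 and 871 FPKM. On chromosome 5 between Htr5a and Insig1, 5 of 9 loci were at least 4-fold lower (chr5:28371392-28384484), of which chr5:28373906-28374131 had 3.58 and 0.566 FPKM. Insig1, which encodes a protein of the endoplasmic reticulum that restrains sterol synthesis, lay 13467 bp away and had 88.0 and 29.5 FPKM. The run overlapped the annotated non-coding gene Gm16719. The remaining bin lay on chromosome 15 between 4933412E24Rik and Fam84b (chr15:59942031-60018990), where all 16 rows on 4 intervals were lower and 6 at least 4-fold. Its highest row had 6.46 and 2.30 FPKM.

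The largest set of lower loci in annotated regions of 1 kind lay in the antigen receptor regions. These regions were taken from the annotation after the values had been seen. Each runs from its first to its last annotated segment, so rows that overlap no receptor segment are included. An example is chr6:41147774-41148980 in Trb, with 19.4 and 7.60 FPKM. The regions held 105 rows on 88 intervals, and 104 of the rows were lower in miR-21-/-. At least 4-fold lower were 65 (61.9%), and none was 4-fold higher. With a pseudocount of 1 FPKM 11 were 4-fold lower, and at 8-fold 22 were lower. The median FPKM was 1.5 in miR-21+/+ tissue and 0.241 in miR-21-/-, with a median log2 ratio of -2.37. The regions thus held 65 of the 171 lower far loci. Without them 106 of 2723 rows were lower and 189 higher.

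**Figure D3:**
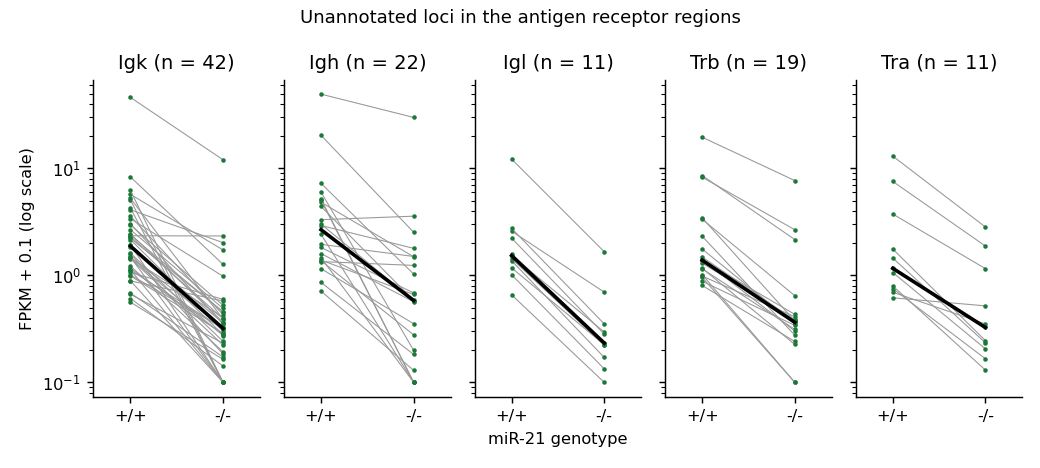
FPKM plus 0.1 (log scale) of the unannotated loci in each antigen receptor region in miR-21+/+ and miR-21-/- tissue, with a line joining the values of 1 row and a thick black line joining the medians. The lines fall in all panels, with 1 rising line in Igh, from 3.22 to 3.48 FPKM.

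All antigen receptor arrays with far loci shared the direction. In the Igk region, which encodes the kappa light chain (chr6:67505630-70676751), 28 of 42 rows were at least 4-fold lower, with medians of 1.78 and 0.219 FPKM. In the Igh region of the heavy chain (chr12:114509484-117238672) 12 of 22 rows were at least 4-fold lower, with medians of 2.57 and 0.483. In the Igl region of the lambda light chain (chr16:19085110-19260937) 10 of 11 were at least 4-fold lower, with medians of 1.43 and 0.133. Only 2 of these 11 rows had V segments as their sole annotated exons, and others overlapped no annotated gene. The T cell receptor regions followed the same direction. In Trb, the beta chain (chr6:40841295-41508370), 8 of 19 rows were at least 4-fold lower, with medians of 1.29 and 0.264. In Tra, the alpha chain (chr14:53047603-54842772), 7 of 11 were at least 4-fold lower, with medians of 1.06 and 0.226. All 75 immunoglobulin rows together had a median log2 ratio of -2.44 and the 30 T cell receptor rows one of -2.0. This difference was not tested.

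Constant region loci were among the most highly expressed of these rows. The kappa constant locus, which spans Igkc and the Igkj segments (chr6:70672504-70676959), had 46.0 FPKM in miR-21+/+ tissue and 11.9 in miR-21-/- in its main row. The heavy chain constant interval (chr12:114496926-114668786) had 6 rows, of which the highest had 49.3 and 29.9 FPKM and the next 20.3 and 2.43. The lambda interval with Iglc2 and Iglc3 (chr16:19065321-19200428) had 12.1 and 1.56 FPKM. The deposited table marks 10 of the 105 rows, these kappa and heavy chain constant rows included, with a status other than OK. Of the rows with status OK, 59 were at least 4-fold lower.

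The V segments showed the same direction one by one. Rows whose only annotated exons were V segments numbered 71, and all of them were lower in miR-21-/-, 45 by at least 4-fold. Igkv8-19 (chr6:70290910-70291131) had 6.12 FPKM in miR-21+/+ and was listed at 0 in miR-21-/-. The same was found for Ighv1-9 (chr12:115821807-115822089, 5.07 FPKM), Igkv14-100 (chr6:68469200-68469445, 4.97), Ighv1-19 (chr12:115946859-115947161, 4.94) and Igkv14-126 (chr6:67846382-67846634, 4.14). Of the segments printed above, Igkv4-68 had 5.14 and 0.290 FPKM, Gm16860 5.90 and 0.0991, and Trbv13-3 2.22 and 0.176. The smallest difference was at Igkv6-15, with 2.25 and 2.24 FPKM. Some segments are near copies of each other, so reads could be divided among them. The locus of Gm16860 matched those of Ighv1-18, Ighv1-19 and Gm16717 at 94.3% to 96.4% identity, and Igkv17-127 matched Igkv17-121 at 98.4%.

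The recombination heptamer was found on the coding strand in the 50 bases after 49 of the 74 V segments covered (66.2%). These were 26 of 34 in Igk, 14 of 16 in Igh, 5 of 17 in Trb, 4 of 5 in Tra and none of 2 in Igl. In windows of the same length beside the other far loci of at most 5 kb, on either side, 33 of 4594 (0.718%) held it. The V windows began at the segment end, where the signal belongs, and the others at locus edges, so this contrast is not a test. An exact nonamer followed in 10 segments, with a spacer of 12 bases in all 9 in Igk and of 23 bases in the 1 in Tra. The match is a description of the sequence and says nothing of recombination in these mice.

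Named markers of lymphocytes were also lower. The B cell marker Ms4a1 had 5.61 and 0.549 FPKM, and Cd79a had no row of its own. The T cell markers Cd3e and Cd3g had 7.26 and 7.70 FPKM in miR-21+/+ and 1.22 and 1.65 in miR-21-/-. These 3 were at least 4-fold lower, and the T cell markers summed to 15.0 and 2.87 FPKM. Of further lymphocyte genes looked up after the values were seen, Cd79b, Cd22 and Cd8a were also at least 4-fold lower. Cd4 (4.94 and 1.39 FPKM), Cd3d (4.49 and 1.18), Cd247 (4.71 and 1.93) and the immunoglobulin joining chain gene Igj (2.14 and 1.14) were lower by less. Markers of other cell types differed too. The brown fat genes Ucp1 and Cidea had 43.3 and 52.3 FPKM in miR-21+/+ and 8.48 and 19.7 in miR-21-/-. The adipocyte list summed to 9304 and 6818 FPKM, with 3 of 4 genes lower, and the skeletal muscle list to 708 and 1099, with 4 of 4 higher. The luminal list summed to 604 and 823 FPKM, with 6 of 7 genes higher, and the myoepithelial list to 275 and 442, with all 4 that had a row higher. In bulk tissue, fewer lymphocytes and less RNA per lymphocyte cannot be told apart, and the part of cell number in the antigen receptor values was not tested.

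Loci that matched an mRNA of another gene, at 90% identity or more over at least 80% of their length, were more highly and more evenly expressed. There were 272, which matched 235 genes at a median identity of 98.4%. Their median FPKM was 2.82 in miR-21+/+ tissue and 2.71 in miR-21-/-. At least 2-fold differences were found in 10.7% of them, against 38.3% of all far loci, and 6 were at least 4-fold higher and 3 lower. These sets were not matched for level, and the part of level in the contrast was not tested. Of the 21 that matched ribosomal protein genes, 1 was past 4-fold, and their medians were 10.45 and 9.002 FPKM. The origin of reads from such copies is uncertain, since a median of 36.7% of their 31-base words occurred once in mm9.

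In most copies past 4-fold the matched gene did not share the difference. The largest difference of all far loci was at chr19:54333107-54333258, a stretch of 152 bp that matched the mRNA of the pyruvate kinase gene Pkm2 at 95.4%. It had 0.973 FPKM in miR-21+/+ tissue and 361 in miR-21-/-, whereas Pkm2 had 206 and 203. A second locus with 93.5% identity to it, chr5:22229843-22230747, had 2.66 and 3.57. At chr13:68295347-68295505, which matched the methionine synthase reductase gene Mtrr at 95.6%, the values were 13.7 and 0, and Mtrr had 3.89 and 3.56. At chr4:33051749-33052261, in the pseudogene Gm11942, the values were 17.1 and 168, while Rplp1, the acidic ribosomal protein gene it matched at 97.8%, had 973 and 1043. The exception was the Insig1 copy on chromosome 3 (chr3:69768916-69769182, 98.5%), which had 5.23 and 1.21 FPKM and so shared the direction of Insig1. A copy of the metalloprotease gene Adam12 (chr17:91950921-91951344) had 1.29 and 0.659, and Adam12 had 26.3 and 12.5. The Pkm2 and Mtrr copies, at the largest rise and fall, spanned only 152 and 159 bp. FPKM is scaled by length, so a high value at so short a span can rest on few reads. Median miR-21+/+ FPKM was 310 among the 184 unannotated loci too short for the rule and 0.799 among the far loci. Read counts were not available, so the part of span in these largest differences was not tested.

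The most highly expressed far loci also differed in direction. The mitochondrial genome, which formed a single row without a gene name, had 6117 FPKM in miR-21+/+ tissue and 4541 in miR-21-/-. Of the 10 loci with the highest mean FPKM, 6 were at least 4-fold higher in miR-21-/-. These included the Pkm2 and Rplp1 copies, and the other 4 had log2 ratios from 2.21 to 2.43. These 4 were chr3:61962969-61963155 (204 and 955), chr17:39979942-39985777 on the annotated pseudogene AY036118 (176 and 947), chr11:108872956-108873426 (157 and 723) and chr2:22599611-22600520 (56.9 and 290). The loci on chromosomes 3 and 2 shared 160 bases at 91.3% identity. The farthest locus from any named gene, on chromosome 4 and given above, matched the AY036118 locus over all its 229 bases at 93.5% and was also higher. Other strongly expressed loci differed little. These were chr5:80067354-80067531 (290 and 189) and chr9:54672933-54673148, which matched the vesicle transport gene Rab7 (175 and 156).

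Loci above 1 FPKM in one genotype and listed at 0 in the other numbered 20 in miR-21-/- and 26 in miR-21+/+. In all, 35 loci were listed at 0 in miR-21+/+ tissue and 39 in miR-21-/-. The highest absent from miR-21-/- outside the antigen receptor regions were the Mtrr copy and chr10:85295701-85295881, with 8.73 FPKM in miR-21+/+, which lay 38694 bp from Pwp1. Pwp1 had 8.84 and 9.45 FPKM. The locus chr2:84331484-84331722, near the tissue factor pathway inhibitor gene Tfpi, had 4.96 FPKM and chr2:172887251-172887493, near the RNA-binding protein gene Rbm38, had 2.99. Tfpi had 14.1 and 13.1 FPKM (status FAIL) and Rbm38 9.54 and 7.42.

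The share past 4-fold was larger at greater distance from named genes. It was 4.47% higher and 3.81% lower among 918 rows at 10 to 20 kb, 6.37% and 5.98% among 502 rows at 50 to 100 kb, and 18.8% and 12.5% among 96 rows beyond 500 kb. Outside the 20 bins with 5 or more calls the share of higher loci was 2.94% at 10 to 20 kb, 6.36% at 100 to 500 kb and 2.56% beyond 500 kb, so that 16 of the 18 higher loci at the greatest distance lay in the bins. All 16 were rows on 7 intervals of the single run on chromosome 17. Lower loci beyond 500 kb were 11 of 78 there, and all 11 lay in the Igh and Igk regions. GC content differed less, with a median of 43.2% in higher loci, 45.8% in lower loci and 45.6% in the loci between. Loci with under 50% unique 31-base words made up 7.69%, 12.6% and 17.3% of these groups. Outside the antigen receptor regions such loci made up 2.60% of the lower loci.

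**Figure D4:**
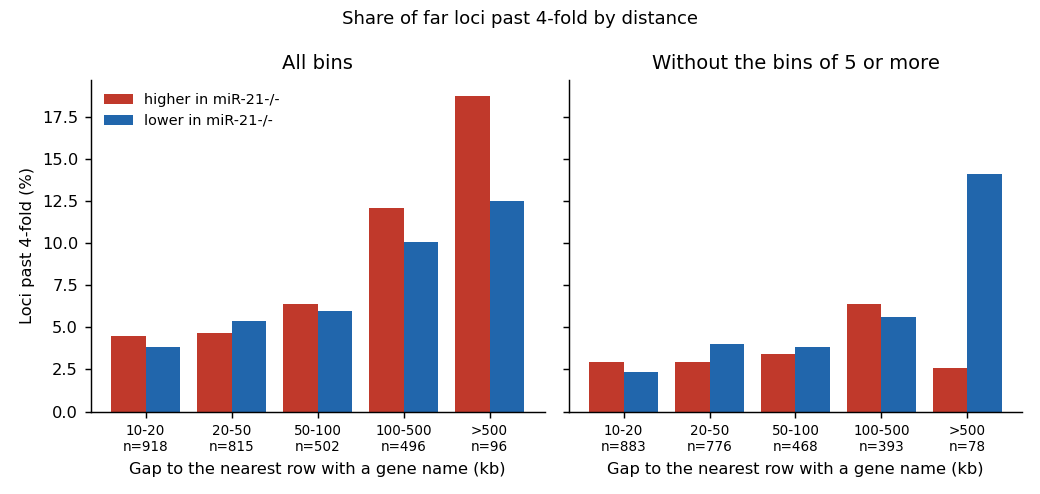
Share of far loci at least 4-fold higher (red) or lower (blue) in miR-21-/-, in % of the loci of each class of gap to the nearest row with a gene name in kb (n below each class). The left panel shows all bins, where the shares rise to 18.8% and 12.5% beyond 500 kb, and the right panel leaves out the 20 bins with 5 or more loci past 4-fold.

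By chromosome, higher loci were most frequent on chromosome 13, with 28 of 161 rows (17.4%) higher and 1 lower. Lower loci were most frequent on chromosome 6, with 49 of 234 (20.9%) lower beside 23 higher, where the Igk and Trb regions lie. On chromosome 9, 15 of 95 rows were lower and none higher, and 11 of the 15 were the models between 4930428G15Rik and Gadl1. Chromosome 17 had 20 higher and 4 lower of 170. Chromosome 1, with 195 rows, had 5 higher and 2 lower. On chromosome X 4 of 99 rows were higher and none lower.

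**Figure D5:**
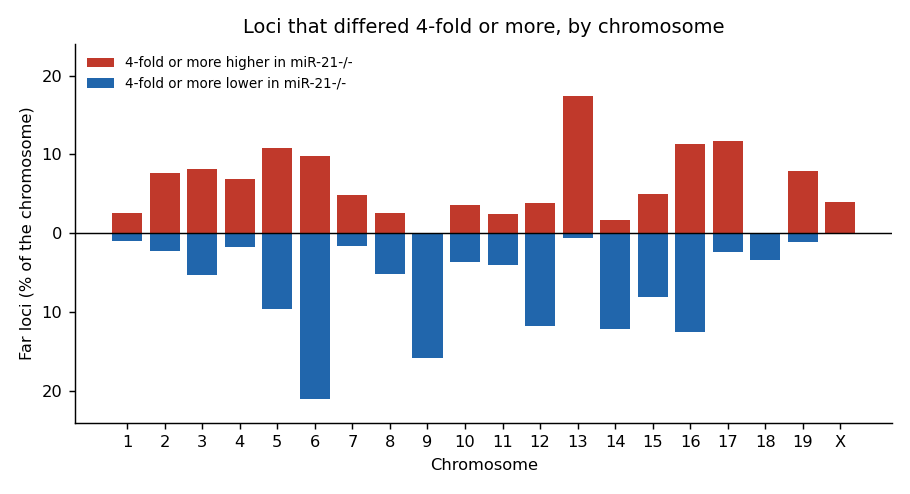
Far loci at least 4-fold higher (red, upward) or lower (blue, downward) in miR-21-/-, in % of the far loci of each chromosome. The tallest bars are chromosome 13 upward (17.4%) and chromosome 6 downward (20.9%).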

How the data were processed

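Poly(A) RNA from mammary glands of 4 mice, 2 per genotype, was sequenced, and the authors mapped the reads to mm9 with TopHat and computed FPKM with Cufflinks and Cuffdiff. CASAVA is also listed in the submitters' processing notes, and the tool versions are not given in the sources used here. The deposited table holds 1 FPKM value per genotype and row. Its comparison columns (log2 fold change, test statistic, p-value, q-value and a significance mark) were not used. Depth is unknown, so no counting interval could be given.

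Starts in the table count from 0, since 7387 named rows began at an annotated gene start counted that way and 424 counted from 1. Positions are given from 1. Ratios are log2((miR-21-/- + 0.1)/(miR-21+/+ + 0.1)), and a locus was called higher or lower at 4-fold. No fold value is printed against a genotype listed at 0, but such loci count in the 4-fold calls, where they depend on the added 0.1 FPKM. Of the 189 higher rows 35 were listed at 0 in miR-21+/+, and of the 171 lower rows 39 in miR-21-/-. Gene classes came from the GENCODE annotation of mm9. For loci of at most 5 kb, 31-base words were counted in mm9, and matches were searched with blastn 2.17.0 (identity of at least 90% over at least 80% of the locus, e-value 1e-05). Python 3.11.15, numpy 2.4.6, pandas 2.3.3, numba 0.67.0, pysam 0.24.0, matplotlib 3.10.9, samtools 1.23.1 and bedtools 2.31.1 were used. The computation was tested on simulated rows with large planted differences and no noise. That checks the arithmetic and not how reliable the calls are at low FPKM.

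The loci and gene lists were chosen with earlier results of these data known. Loci named are the 10 largest differences in each direction, the 10 highest mean FPKM, the bins with most calls and their named neighbours, and up to 5 loci per genotype listed at 0 in the other. Many of the largest differences and of the named loci listed at 0 spanned less than 300 bp, where FPKM can rest on few reads. Their rank is therefore no measure of how reliable they are. Further loci, the antigen receptor regions and the mRNA copies were named after their values were seen. Alternatives were the pseudocount, scaling, length, distance, merging, bin placement, fold and status. The result for 1 marker gene is not reported here.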

Additional observations from a re-analysis of the deposited data

How the results depend on the processing

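No paired analysis was possible because only 1 pooled value exists for each genotype. For the same reason no mouse could be left out. Of 74 alternative values of 7 results, 40 stayed close to the value reported and 34 moved, and the cause was not tested where the construction does not give it. None of the 20 named loci and no median changed sign. The balance of calls, 189 higher against 171 lower, did turn with 0.01 FPKM, scaling to all rows, merging and the 2-fold limit, and without the leading pair of bins (157 and 171).

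With a pseudocount of 1 FPKM, 23 loci were higher and 17 lower, the median log2 ratio was -0.0703, 1 bin held 5 or more higher and 0 held 5 or more lower loci, the leading pair of bins held 9 higher loci, and 11 antigen receptor loci were lower. With 0.01 FPKM, 242 were higher and 266 lower, and 16 bins held 5 or more lower loci. Scaling to named rows moved the median to -0.0359. Scaling to all rows gave 100 higher and 295 lower, a median of -0.68, and 6 and 18 bins, and 25.3% of the calls were then higher, against 52.5% unscaled. Above 500 bp, with fewer loci (1759), 112 were higher and 88 lower, with a median of -0.0734 and 4 lower bins. Beyond 50 kb (1095 loci), 110 were higher and 92 lower, with a median of -0.0348 and 6 lower bins. Merging loci less than 5 kb apart left 62 higher and 74 lower, 0 and 1 bins, and 4 higher loci in the leading bins. At 2-fold 527 were higher and 555 lower, and at 8-fold 57 and 54, with 22 antigen receptor loci. Without antigen receptor regions 106 were lower. The last alternative, the antigen receptor values, the status filter and the count of distinct intervals were chosen after seeing the data. Of the 20 loci with the largest differences, 4 came under 4-fold with a pseudocount of 1 FPKM.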
